A study of Mus musculus with 6 samples.

Results

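The Krüppel-like factors are DNA-binding proteins with 3 zinc fingers at the carboxyl end, and 10 of the 17 Klf genes annotated in the mouse are described here by the histone mark at their promoters in a progenitor T cell line and a progenitor B cell line. The 10 genes, Klf1, Klf2, Klf3, Klf4, Klf6, Klf7, Klf9, Klf10, Klf12 and Klf13, were taken by name, and each was assigned the H3K4me3 ChIP-seq peaks that overlapped the 2500 bp on either side of any of its annotated transcription start sites (TSSs). The same rule was applied to all 21938 protein-coding genes outside the mitochondrial genome, which give the background for each count. The pro-T line was Scid.adh.2C2, derived from a pro-T tumor of CB17-Prkdc<scid> mice, which carry the scid mutation. The pro-B line was 230-238, a progenitor B line transformed with Abelson virus. The authors call it pro-B in one place and pre-B in another, and pro-B is used here. Each line had 2 H3K4me3 libraries, made with 1 antibody from Millipore, and 1 input library. The authors merged the replicates of each line into 1 peak list, so that no value per replicate, no read count and no depth was at hand, and every difference between the lines is given as a description without a test. Each line is 1 tumor-derived or virus-transformed line, and the lines were grown in the same base medium with partly different supplements. Lineage, transformation and culture therefore cannot be told apart.

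H3K4me3 is deposited around the start sites of genes with active or poised promoters, and its breadth and height vary between promoters. All Krüppel-like factors bind GC-rich and CACCC-type DNA through their zinc fingers and differ in the amino-terminal part that recruits cofactors. Klf1, Klf2, Klf4, Klf6 and Klf7 are usually grouped as activators, Klf3 and Klf12 as repressors that bind CtBP, and Klf9, Klf10 and Klf13 as factors that bind SIN3A. In lymphocytes the family is best known for KLF2, which keeps T cells quiescent and directs their homing.

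Promoter sequences of 300 bases, from 250 bases before to 50 bases after a RefSeq start on GRCm38.p6, were found for 9 of the 10 genes (not for Klf10). The 7 windows below are shown because they contain the start sites on which the differences between the lines turn, together with one CpG-rich window, of Klf4, and one CpG-poor window, of Klf1, that no peak covered. Each is written 5′ to 3′ on the strand of the gene, and the capitals mark every match to CCNCNCCC on either strand, the core letters of a CACCC or GC box. The Klf3 window at chr5:64803271-64803570 (+) contains the most upstream TSS, which was inside a peak in the pro-T line only.
Klf3 upstream: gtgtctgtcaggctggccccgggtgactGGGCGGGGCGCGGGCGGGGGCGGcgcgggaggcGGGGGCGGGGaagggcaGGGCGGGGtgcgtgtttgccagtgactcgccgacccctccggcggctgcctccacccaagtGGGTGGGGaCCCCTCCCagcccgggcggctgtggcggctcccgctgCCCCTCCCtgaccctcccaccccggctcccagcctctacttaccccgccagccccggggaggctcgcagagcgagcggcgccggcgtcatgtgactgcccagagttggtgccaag
The second Klf3 window, at chr5:64812089-64812388 (+), was read from the genome around the coding start 8951 bp further downstream, and all of its 300 bases were under a pro-T peak and none under a pro-B peak.
Klf3 internal: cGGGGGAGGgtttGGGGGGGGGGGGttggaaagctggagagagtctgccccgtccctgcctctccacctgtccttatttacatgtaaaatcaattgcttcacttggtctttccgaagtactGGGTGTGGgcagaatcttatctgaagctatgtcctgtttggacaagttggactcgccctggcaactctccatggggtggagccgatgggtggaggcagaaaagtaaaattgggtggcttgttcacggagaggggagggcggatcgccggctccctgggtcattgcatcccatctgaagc
The Klf6 window at chr13:5861239-5861538 (+) and the Klf9 window at chr19:23140976-23141275 (+) belong to the genes that had peaks in the pro-B line only.
Klf6: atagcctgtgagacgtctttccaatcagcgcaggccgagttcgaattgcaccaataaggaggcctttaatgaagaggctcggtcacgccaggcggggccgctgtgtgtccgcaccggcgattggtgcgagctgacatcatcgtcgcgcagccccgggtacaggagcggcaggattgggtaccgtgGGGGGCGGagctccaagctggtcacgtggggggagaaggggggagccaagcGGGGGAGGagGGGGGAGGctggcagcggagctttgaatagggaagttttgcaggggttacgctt
Klf9: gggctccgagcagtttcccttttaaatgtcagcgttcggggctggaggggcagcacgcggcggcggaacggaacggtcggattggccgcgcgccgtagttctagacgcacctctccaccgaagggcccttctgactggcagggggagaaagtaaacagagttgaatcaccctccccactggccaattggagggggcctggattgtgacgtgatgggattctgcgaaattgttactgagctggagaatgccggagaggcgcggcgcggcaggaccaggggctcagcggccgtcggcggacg
The Klf2 window at chr8:72318812-72319111 (+) was covered over all 300 bases in both lines.
Klf2: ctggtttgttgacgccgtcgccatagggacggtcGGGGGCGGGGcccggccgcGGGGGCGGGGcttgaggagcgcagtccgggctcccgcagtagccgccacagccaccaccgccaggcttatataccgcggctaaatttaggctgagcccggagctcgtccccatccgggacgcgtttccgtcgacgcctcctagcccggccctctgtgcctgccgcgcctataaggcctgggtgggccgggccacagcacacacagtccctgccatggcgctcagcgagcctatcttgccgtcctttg
The Klf4 window at chr4:55532426-55532725 (-) was not covered in either line.
Klf4: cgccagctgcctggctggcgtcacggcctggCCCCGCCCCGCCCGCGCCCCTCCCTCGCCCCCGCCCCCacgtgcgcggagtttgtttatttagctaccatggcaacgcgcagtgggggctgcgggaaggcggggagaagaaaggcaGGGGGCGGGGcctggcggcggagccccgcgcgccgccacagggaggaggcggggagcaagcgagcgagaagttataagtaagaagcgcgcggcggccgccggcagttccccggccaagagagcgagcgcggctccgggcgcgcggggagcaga
The Klf1 window at chr8:84901732-84902031 (+) was also outside the peaks of both lines, which began downstream of it.
Klf1: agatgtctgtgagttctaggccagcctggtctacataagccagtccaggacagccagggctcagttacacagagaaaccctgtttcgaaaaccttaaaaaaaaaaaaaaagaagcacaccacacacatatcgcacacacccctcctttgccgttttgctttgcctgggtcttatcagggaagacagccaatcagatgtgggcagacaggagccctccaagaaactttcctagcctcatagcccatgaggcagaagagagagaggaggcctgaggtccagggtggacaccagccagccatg

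These windows were rich in CpG for the most part. The ratio of observed to expected CpG was above the median of all 32851 windows of this length, 0.384, in 8 of the 9 Klf genes, and reached 0.974 at Klf4 and 0.962 at Klf9. Klf1, with 0.152 and 3 CpGs, was the one below the median, and Klf12, with 0.426 in a window around a start inside the gene, was close to it. The GC content ran from 45.7% at Klf12 to 76.7% at Klf3, with a median of 52.7% over all windows. CCNCNCCC was found in 7 of the 9 windows and in 49.5% of all windows, with 10 matches at Klf3, 9 at Klf4, 8 at Klf7 and none at Klf9 or Klf1. The GC box GGGCGG, whose matches can overlap those of CCNCNCCC on the other strand, was found in 6 of the 9 windows and in 35.7% of all, and CCCNNGGG, the palindromic core of the EBF1 motif, was found at Klf3 and Klf13 and in 13.7% of all. Start positions on both strands were counted, so that overlapping matches count separately. The windows without a peak did not share one composition, as Klf4 was among the most CpG-rich and Klf12 was near the median.

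Both lists were also described at genes of known lineage. These markers were chosen with earlier results of these data known, so they are not an independent check of the lists. All 10 T cell progenitor markers had a promoter peak in the pro-T line and 4 of them in the pro-B line, while all 10 B cell progenitor markers had one in the pro-B line and 1, Vpreb1, in the pro-T line. None of 8 myeloid markers had a peak in either line. The pro-T list held 15513 peaks with a median fold enrichment over background of 20.3, and the pro-B list 19604 peaks with a median of 15.4. As the scales differ, fold enrichments were compared between the lines by their percentile within the list or after centering on the median log2 ratio (pro-T over pro-B) of 0.32, taken over the 9261 genes with a promoter peak in both lines. A missing peak means only that none passed the thresholds of the authors. Of 79 ribosomal protein genes, looked at after the values were seen, 5 in the pro-T line and 7 in the pro-B line had no promoter peak.

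Of the 10 Klf genes, 6 had a promoter peak in the pro-T line (60%) and 8 in the pro-B line (80%). The background over all protein-coding genes was 45.5% in the pro-T line and 48.2% in the pro-B line. Of the other 7 annotated Klf genes, 2 had a promoter peak in the pro-T line and 3 in the pro-B line. The shares of the 10 genes therefore depend on which Klf genes were taken and do not describe the whole family. Klf1, Klf2, Klf3, Klf7, Klf10 and Klf13 had a peak in both lines, as did 42.2% of all genes. Klf6 and Klf9 had peaks in the pro-B line only, a state seen at 5.97% of all genes. No Klf gene of the 10 had a peak in the pro-T line only (background 3.28%), and Klf4 and Klf12 had none in either line (background 48.5%). By type, the activators were split into 3 genes with peaks in both lines, 1 in the pro-B line only and 1 in neither, the SIN3A-binding genes into 2 with peaks in both lines and 1 with peaks in the pro-B line only, and of the CtBP-binding genes Klf3 had peaks in both lines and Klf12 in neither.

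**Figure D1:**
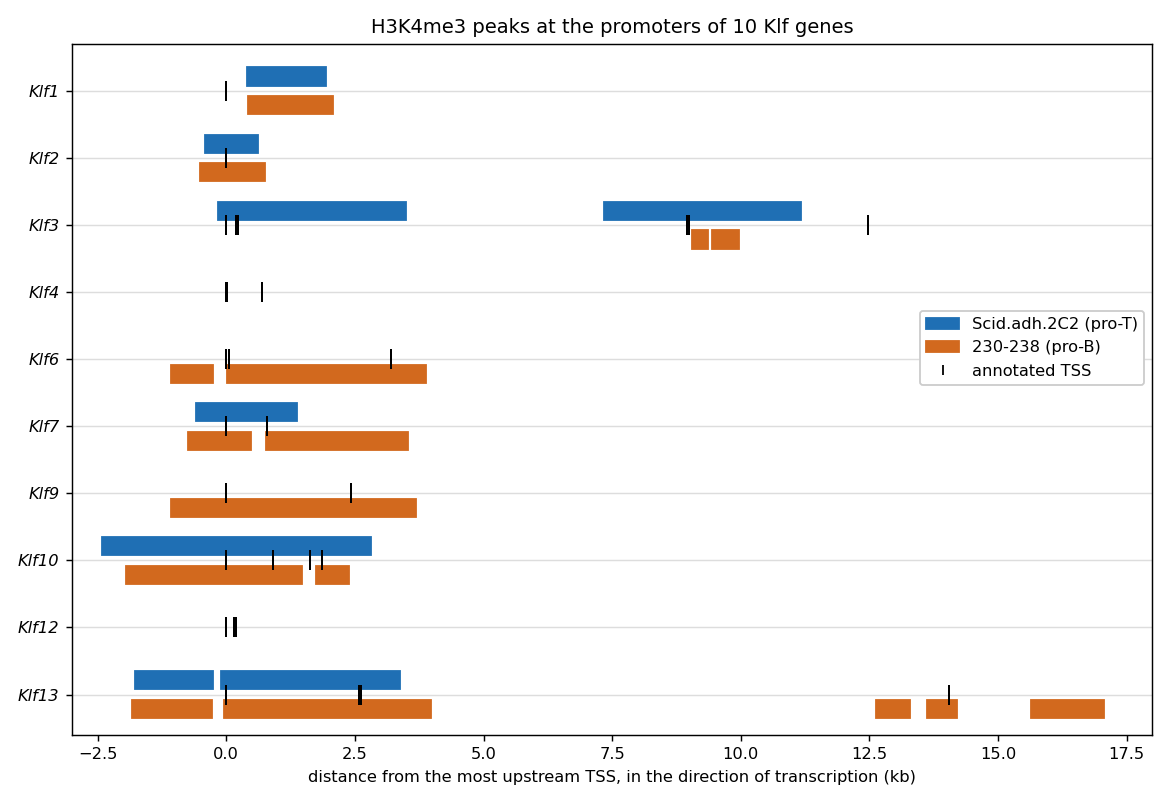
Promoter peaks of the 10 Klf genes in Scid.adh.2C2 (blue) and 230-238 (orange), drawn as bars from peak start to peak end against the distance in kb from the most upstream TSS, with black ticks for annotated TSSs in the range drawn. Klf6 and Klf9 have orange bars only, Klf4 and Klf12 have none, and the 2 long blue bars of Klf3 stand against 2 short orange bars at its internal starts.

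Among the activators, Klf6, a widely expressed gene known as a tumor suppressor, had a strongly marked promoter in the pro-B line and no promoter peak in the pro-T line. Klf6 lies at chr13:5861482-5870394 (+) and has 3 annotated TSSs. In the pro-B line, a peak of 829 bp upstream of the gene (chr13:5860398-5861226) had 18.1-fold enrichment, and a peak of 3872 bp (chr13:5861498-5865369) had 28.5-fold enrichment, at the 95.4th percentile of its list, with its summit in an intron 1747 bp downstream of the first TSS. Together the peaks covered 4701 bp, or 57.4% of the promoter window, and the first TSS lay in the gap between them, 16 bp from the nearer peak. Only 41 of the 300 bases of the Klf6 sequence above were therefore under a peak. In the pro-T line, the nearest peak was 682767 bp from any Klf6 TSS. The promoter window of the non-coding gene 1700016G22Rik, on the other strand, also overlapped the upstream peak of 829 bp.

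Klf2, which keeps lymphocytes quiescent and directs the homing receptors of T cells, had 1 peak over its single TSS in each line. The gene lies at chr8:72319033-72321656 (+). The pro-T peak (chr8:72318622-72319645) was 1024 bp wide with 15.3-fold enrichment, at the 37.5th percentile, and the pro-B peak (chr8:72318528-72319780) was 1253 bp wide with 20.1-fold enrichment, at the 68.4th percentile. The pro-T peak lay wholly within the pro-B peak, and the summits were 59 bp apart, in a coding exon in the pro-T line and in an intron in the pro-B line. Klf2 was thus marked at the same place in both lines and stood 31.0 percentile points higher in the pro-B list. The centered log2 ratio was -0.70, and 8.36% of the genes marked in both lines had a ratio at or below it.

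The genes upstream of Klf2 and those linked to KLF2 differed among themselves. Of 5 upstream genes, Foxo1, Mef2d and Map2k5 had promoter peaks in both lines, whereas Mef2c, a transcription factor downstream of the kinase encoded by Mapk7, and Mapk7 itself had peaks in the pro-B line only, of 14.3-fold and 23.8-fold. Among the homing and quiescence genes, Itgb7, Ccr7, S1pr4, Cdkn1a and Cdkn1b had peaks in both lines. S1pr1, the receptor through which lymphocytes leave the thymus, had a pro-B peak of 30.6-fold and no pro-T peak.

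Klf7, known for its role in the development of neurons, lies at chr1:64029447-64122282 (-) and was covered over a longer stretch in the pro-B line. The pro-T line had 1 peak (chr1:64120912-64122864) of 1953 bp and 28.7-fold enrichment, which contained all 3 TSSs. The pro-B line had a peak of 1234 bp (21.6-fold) over the first TSS and one of 2764 bp (21.2-fold) that began 763 bp downstream of it, over the starts at 791 bp and 800 bp, and reached 3526 bp into the gene. The covered length was 1953 bp in the pro-T line and 3772 bp in the pro-B line, a ratio of 1.93. The highest enrichments had nearly the same percentile, 76.6 and 75.1, and their summits were 10 bp apart. The lines therefore differed at Klf7 in the downstream extent of the mark more than in its height. The shared stretch was 41.3% of the union, and only 5.80% of genes marked in both lines shared as little or less.

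Klf1, the erythroid factor that drives globin genes, had a peak in each line that did not cover its TSS. Klf1 lies at chr8:84901928-84905291 (+), and the peaks began 411 bp downstream of the TSS in the pro-T line (chr8:84902339-84903873) and 413 bp in the pro-B line (chr8:84902341-84903998). The pro-T peak had 18.6-fold enrichment (45.4th percentile) with its summit in a coding exon, and the pro-B peak 13.8-fold (43.6th percentile) with its summit in an intron, 718 bp away. The stretches under peaks shared 92.3% of their union, so that the mark in the gene was alike in extent and rank. The summits were further apart than at most genes marked in both lines, whose gap had a median of 71 bp and an upper quartile of 520 bp. Other erythroid genes were mostly without a peak, as Gata1, the listed globin genes and Alas2 had none in either line, and Epor had a pro-T peak of 8.84-fold.

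Klf4, the factor used to reprogram cells to pluripotency, lies at chr4:55527143-55532466 (-) and had no promoter peak in either line, although its window was among the most CpG-rich of the family. The nearest peak to a Klf4 TSS was 42065 bp away in the pro-T line, downstream of the gene with 10.1-fold enrichment, and 178651 bp away in the pro-B line.

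Klf3, a CtBP-binding repressor known from B cell and erythroid development, had the most unequal covered length of the 6 Klf genes marked in both lines. It lies at chr5:64803388-64832901 (+) and has 9 annotated TSSs. In the pro-T line, a peak of 3660 bp (chr5:64803222-64806881) with 24.5-fold enrichment contained the 3 most upstream TSSs, and a peak of 3839 bp (chr5:64810727-64814565) with 24.1-fold enrichment contained the 3 internal TSSs, at 8951, 8952 and 8996 bp from the first, with its summit in an untranslated part of an exon. In the pro-B line, the nearest peak was 8816 bp from the upstream TSSs, and 2 short peaks, of 319 bp with 4.33-fold and of 516 bp with 10.0-fold enrichment, lay in an intron just past the internal starts, the nearer one 54 bp from a TSS. The covered length was 6740 bp in the pro-T line and 835 bp in the pro-B line, a ratio of 8.07, and 99.96% of the genes marked in both lines had a log2 ratio at or below that of Klf3. The shared stretch, all of the pro-B length, was 12.4% of the union, and 0.842% of genes shared as little or less. Klf3 was thus marked in both lines by the rule, but at its upstream start in the pro-T line only. The start sites of the non-coding genes Gm20033, on the opposite strand, and C230096K16Rik also lay inside the upstream pro-T peak, and the share of each gene in that peak cannot be told apart.

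Klf12, the other CtBP-binding repressor, lies at chr14:99870632-100284679 (-) and had no promoter peak in either line at any of its 6 TSSs. The nearest peak was 174819 bp from a TSS in the pro-T line. In the pro-B line, a weak peak of 5.74-fold lay inside the gene, 59954 bp from the nearest TSS and at the 2.49th percentile of its list.

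Klf9, a SIN3A-binding factor that responds to glucocorticoid and thyroid hormones, had one of the strongest H3K4me3 peaks of the pro-B line. The gene lies at chr19:23141226-23168134 (+), and a single peak of 4749 bp (chr19:23140160-23144908) contained both of its TSSs with 36.0-fold enrichment, which was rank 28 of 19604 peaks. Its summit was in a coding exon 947 bp downstream of the first TSS. In the pro-T line, the nearest peak was 129047 bp from a Klf9 TSS. For comparison, the 1309 genes with a peak in the pro-B line only had a median highest enrichment of 16.9 and a median covered length of 2028 bp, so that Klf6 and Klf9 were both well above the middle of the genes in the same state. When the pro-B list was shortened to the length of the pro-T list, or limited to peaks of at least 10-fold, both genes kept their pro-B peaks. Both settings only remove peaks, so they could not show a pro-T peak at either gene.

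Klf10, a SIN3A-binding factor induced by TGF-β, had a broad peak in both lines, which contained all 4 of its TSSs in the pro-T line and 2 of them in the pro-B line. It lies at chr15:38291463-38300706 (-). The pro-T peak (chr15:38297895-38303120) was 5226 bp wide, wider than or as wide as 99.3% of the peaks of its list, but had only 15.2-fold enrichment, at the 37.2nd percentile. The pro-B line had a peak of 3410 bp (chr15:38299237-38302646) with 21.6-fold enrichment, at the 74.8th percentile, and a peak of 654 bp (chr15:38298317-38298970) with 7.91-fold and an IDR score of 785, which contained 1 further TSS, and the remaining TSS lay 112 bp from a peak. The highest summits lay upstream of the gene, at -940 bp from the first TSS in the pro-T line and -691 bp in the pro-B line. The covered length of Klf10 was 5226 bp in the pro-T line and 4064 bp in the pro-B line, a log2 ratio of 0.36, and the centered log2 ratio of fold enrichment was -0.82.

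Klf13, a SIN3A-binding factor that promotes expression of the chemokine RANTES in T cells, lies at chr7:63886351-63938915 (-) and had more and longer peaks in the pro-B line. Around the upstream starts the lines were alike in position. The pro-T line had a peak of 3496 bp with 18.5-fold and one of 1513 bp with 21.4-fold enrichment (52.7th percentile), and the pro-B line had one of 4023 bp with 25.8-fold (89.4th percentile) and one of 1558 bp with 19.0-fold enrichment, and in both lines the 2 peaks were separated by a short gap just upstream of the first TSS. The pro-B line had 3 more peaks in an intron around the internal coding TSS 14045 bp downstream, of 7.27-fold to 9.54-fold enrichment, one of them over that TSS. No pro-T peak was there, the nearest being 10662 bp away. The covered length was 5009 bp in the pro-T line and 7718 bp in the pro-B line, a ratio of 1.54. The centered log2 ratio of fold enrichment was -0.59. That value compares different peaks, as the highest summits of the lines were 2766 bp apart. Of the longer peaks, the pro-B one was higher, at 25.8-fold against 18.5-fold. Of the peaks upstream of the first TSS, the pro-T one had 21.4-fold (52.7th percentile) and the pro-B one 19.0-fold (64.2nd percentile). With the most upstream TSS alone, the log2 ratio of covered length was 0.01 in place of -0.62, so that the difference in length came from the downstream starts.

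Across the 6 Klf genes with a peak in both lines, the highest fold enrichment ran from 15.2 (Klf10) to 28.7 (Klf7) in the pro-T line and from 10.0 (Klf3) to 25.8 (Klf13) in the pro-B line. The medians over the genes marked in each line were 27.1 and 21.7. In the pro-T line, Klf7 alone was above that median. In the pro-B line, Klf13, Klf6 and Klf9 were above it, and Klf7 and Klf10 lay just under it. Without replicate values, neighbors in these orders cannot be separated.

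**Figure D2:**
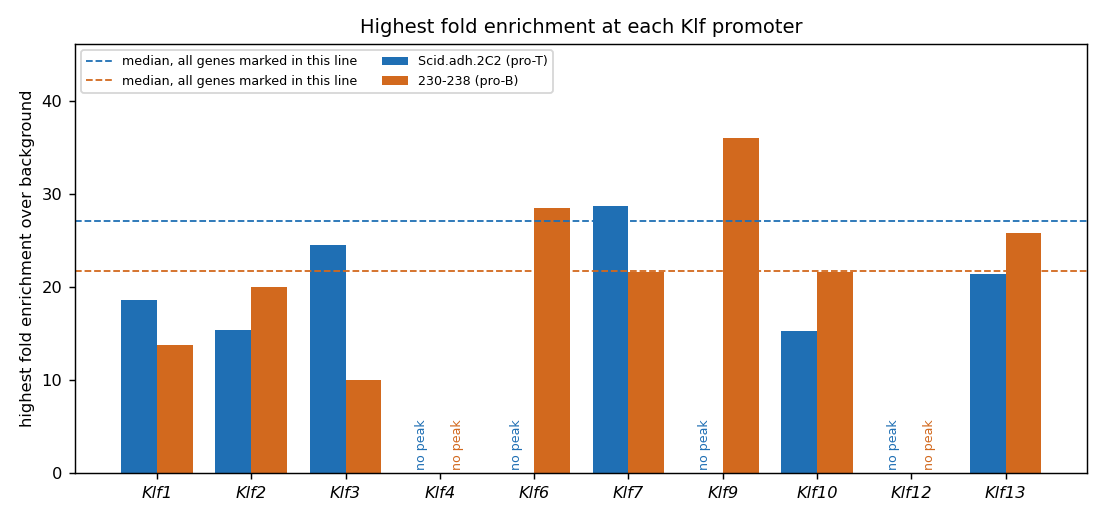
Highest fold enrichment over background of any promoter peak at each Klf gene in Scid.adh.2C2 (blue bars) and 230-238 (orange bars), with dashed lines at the medians over all genes marked in that line, 27.1 and 21.7. The tallest bar is Klf9 in the pro-B line, at 36.0-fold, and Klf3 is the gene with the tallest pro-T bar relative to its pro-B bar.

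A difference of 1.5-fold or more in centered fold enrichment was found toward the pro-T line at 1 gene, Klf3 (log2 ratio 0.97, background 9.29% of the 9261 genes). Toward the pro-B line it was found at 3 genes, Klf2, Klf10 and Klf13 (background 12.1%). At Klf3 and Klf13 the highest summits of the lines were 8550 bp and 2766 bp apart, so these ratios compare different peaks. Without centering, Klf2, Klf10 and Klf13 were at -0.39, -0.50 and -0.27 on the log2 scale, and none of them reached 1.5-fold. By −log10 q in place of fold enrichment, centered in the same way, Klf2 reached it, at -1.38, and Klf10 and Klf13 did not, at -0.21 and -0.52. The percentiles gave the same 3 genes, with differences of 31.0 points for Klf2, 37.6 for Klf10 and 36.7 for Klf13, and Klf3 differed by 36.4 points toward the pro-T line. Klf1 and Klf7 differed by less than 2 points.

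The covered length was 1.5-fold or more longer in the pro-T line at Klf3 (background 3.05%) and in the pro-B line at Klf7 and Klf13 (background 15.0%). Klf1, Klf2 and Klf10 were below 1.5-fold, with log2 ratios of -0.11, -0.29 and 0.36. Covered length is usually somewhat longer in the pro-B list, with medians of 2321 bp in the pro-T line and 2704 bp in the pro-B line over the 9261 genes, and Klf10, at the 94.3rd percentile of the log2 ratios, and Klf3 were the family members furthest to the other side. With windows of 1000 bp, Klf7 and Klf13 were at -0.22 and -0.34 and no longer reached 1.5-fold, and with peaks of an IDR score of 1000 alone Klf10 reached it toward the pro-T line, at 0.62. Unlike fold enrichment, covered length was not centered, and its median log2 ratio over the 9261 genes was -0.16, toward the pro-B line. The calls at Klf7 and Klf13 include that shift, and 13.8% of the genes had a log2 ratio at or below that of Klf13. By the 1.5-fold criterion, Klf7 differed in uncentered length alone and Klf2 and Klf10 in centered height alone.

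**Figure D3:**
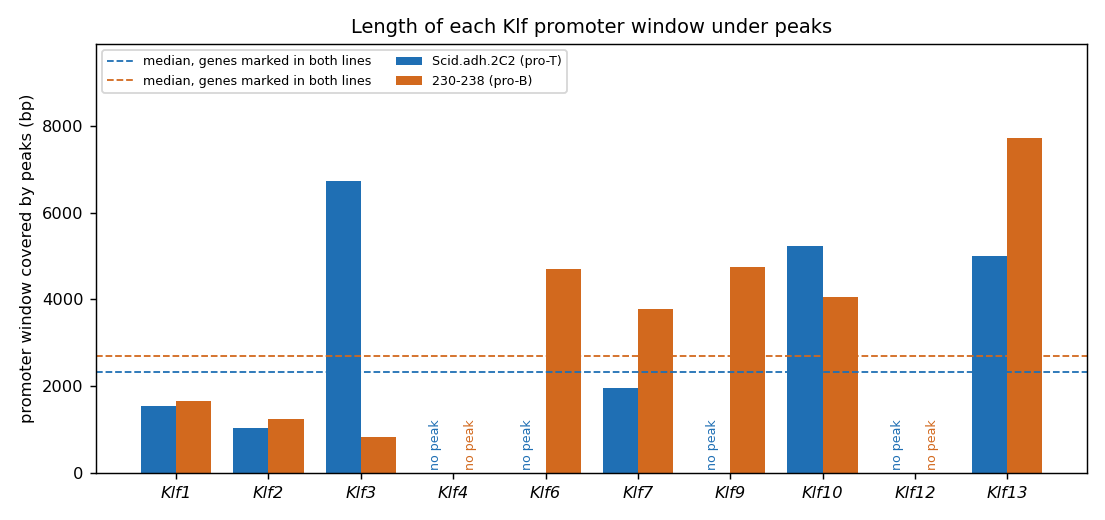
Base pairs of the merged promoter windows of each Klf gene under H3K4me3 peaks in Scid.adh.2C2 (blue bars) and 230-238 (orange bars), with dashed lines at the medians of 2321 bp and 2704 bp over the genes marked in both lines. Klf3 reaches 6740 bp in the pro-T line and 835 bp in the pro-B line, whereas Klf13 is longest in the pro-B line at 7718 bp.

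**Figure D4:**
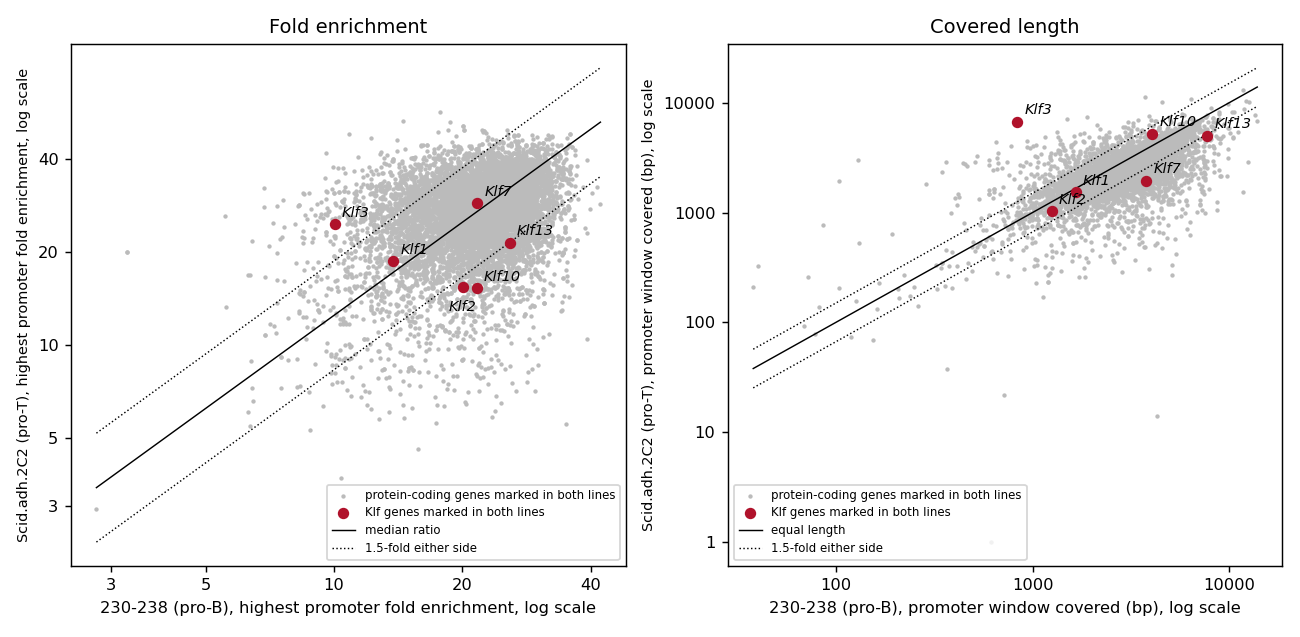
Highest promoter fold enrichment (left) and covered promoter length in bp (right) in Scid.adh.2C2 against 230-238 on log scales, with 1 gray point for each of the 9261 protein-coding genes marked in both lines and red points for the 6 Klf genes. Solid lines mark the median ratio (left) and equal length (right), dotted lines a ratio of 1.5 on either side, and Klf3 lies outside the dotted lines toward the pro-T line in both panels.

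Peaks near the Klf genes but away from their promoters and from the promoters of other coding genes were counted in the gene bodies and the 50 kb on either side. These counts have no background over all genes, and the pro-B list is longer (19604 peaks against 15513), so they only describe each locus. Klf6 and Klf9 had 2 such peaks each in the pro-B line and none in the pro-T line. Those of Klf6 had 13.4-fold and 7.53-fold enrichment, and those of Klf9 were a peak of 15.4-fold in the gene body 10851 bp downstream of the first TSS and one of 9.76-fold with its summit at -5943 bp. Klf7 had 3 in the pro-B line, 2 of them in the gene body, and none in the pro-T line. Klf3 had 1 in the pro-T line, of 19.2-fold, 57826 bp downstream of its first TSS, and none in the pro-B line.

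Near Klf13 and Klf10 peaks were present in both lines, most of them without a partner in the other line. How often such peaks lack a partner over all genes is not given here, so this is not read as particular to them. Klf13 had 5 nearby peaks in the pro-T line (6.57-fold to 9.89-fold) and 3 in the pro-B line (8.04-fold to 12.2-fold), and 1 of them, in the gene body, overlapped between the lines. By count alone, Klf13 had more nearby peaks in the pro-T line, although its promoter was covered over a longer stretch in the pro-B line. Klf10 had 2 in the pro-T line and 3 in the pro-B line, with 1 pair that overlapped, and its promoter was covered over a longer stretch in the pro-T line. Klf2 had 1 in the pro-B line, of 8.13-fold, Klf1 had none, and the single peaks near Klf4 (pro-T line) and inside Klf12 (pro-B line) are those described above.

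Of the other 7 Klf genes, 2 had a promoter peak in both lines, 1 in the pro-B line only and 4 in neither. Klf11, a SIN3A-binding relative of Klf10, had peaks of 34.0-fold in the pro-T line and 17.2-fold in the pro-B line, and Klf16 of 31.9-fold and 22.4-fold. Klf8, a CtBP-binding repressor, had a peak in the pro-B line only, of 14.6-fold, and Klf5, Klf14, Klf15 and Klf17 had none. Of the 9 Sp genes, which encode the closest relatives of the family and bind GC boxes, Sp1, Sp2, Sp3 and Sp4 had peaks in both lines, Sp9 had one of 26.9-fold in the pro-T line only, and Sp5, Sp6, Sp7 and Sp8 had none. Of 11 genes for cofactors and regulators of these proteins, 10 had peaks in both lines, among them Sin3a, Sap30, Hdac1, Crebbp, Ep300 and Ctbp1, and Ctbp2 had none in either line.

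**Figure D5:**
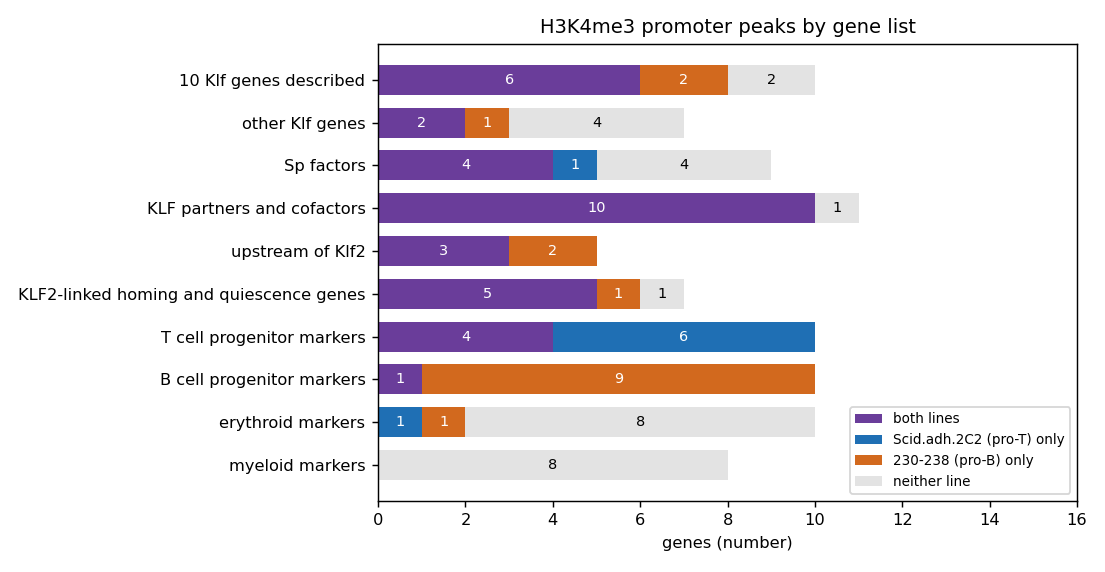
Number of genes in each list with an H3K4me3 promoter peak in both lines (purple), in Scid.adh.2C2 only (blue), in 230-238 only (orange) or in neither (gray). The T and B cell progenitor markers separate the lines, 10 of 11 cofactor genes are purple, and the 10 Klf genes hold 6 purple, 2 orange and 2 gray.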

How the data were processed

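H3K4me3 ChIP-seq libraries of 2 cell lines, with 2 ChIP libraries and 1 input library each, were grouped by the cell line in the labels. The authors trimmed reads with Trim Galore (0.6.7), mapped them to mm10 (GRCm38) with Bowtie2 (2.4.4), called narrow peaks with MACS2 (2.2.7.1) against the matching input and kept peaks that passed the irreproducible discovery rate (IDR) between replicates. The deposited lists give each peak a position, a score from IDR, a fold enrichment ratio relative to background and a −log10 q-value, used unchanged, and a −log10 p-value, used only to rank peaks. The input libraries were used by the authors alone, to call peaks, and the depth is unknown.

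TSSs came from GENCODE vM21 on GRCm38 and promoter sequences from RefSeq (GRCm38.p6). Windows of 2500 bp either side of each TSS were merged per gene, and a gene was marked when a peak overlapped by at least 1 bp. The highest fold enrichment, the bp covered and the log2 ratios between lines were computed, and a ratio of 1.5 was counted as a difference. No test was made, since each line has 1 combined list. All 10 Klf genes were named, with fixed lists of related genes and markers, some of whose genes are not reported here. Genes and lists were chosen with earlier results of these data known. The peak assignment was tested on simulated data. Alternatives were other windows, stricter peaks, equal list lengths, summits, other TSS choices and other measures of height and length. Python 3.11.15, numpy 2.4.6, pandas 2.3.3 and matplotlib 3.10.9 were used.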

Additional observations from a re-analysis of the deposited data

How the results depend on the processing

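The state of the 10 Klf genes (peak in both lines, one line or neither) was kept with windows of 1000 bp or of 5000 bp, with enrichment of 10-fold or more, an IDR score of 1000, equal list lengths, summits inside the window and coding TSSs. Of these, only windows of 5000 bp could add a peak, so the others could not give Klf6 or Klf9 a pro-T peak. With the most upstream TSS alone, Klf3 became the 1 gene marked in the pro-T line only, and no gene was then longer or higher by 1.5-fold in the pro-T line (0 in place of 1 for both measures). Genes with longer coverage in the pro-T line numbered 2 in place of 1 with peaks of at least 10-fold, an IDR score of 1000 or the widest peak, Klf10 being added. Genes with longer coverage in the pro-B line numbered 0 in place of 2 with windows of 1000 bp or the widest peak, and 1 (Klf7) with peaks of at least 10-fold, an IDR score of 1000 or the most upstream TSS. The log2 ratio of covered length at Klf13 turned from -0.62 to 0.0077 with the most upstream TSS. Genes higher in the pro-B line numbered 0 in place of 3 without centering and 1 (Klf2) by −log10 q. Apart from fewer TSSs, peaks or bases by construction, the cause was not tested. No paired analysis was possible because the replicates of each line were merged into 1 list, and for the same reason no replicate could be left out and the spread between replicates and the depth are unknown.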
